A study of Mus musculus with 6 samples.

Results

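The interleukin receptor family was taken as the genes whose symbol begins with Il, a number and the letter r, without Il2ra, Il2rb, Il2rg and Il15ra. This gave 34 genes on 36 probe sets among the 22180 genes that the array's probe table names by exactly 1 symbol, and where a gene had several probe sets the brightest by mean over the 6 arrays stood for it. One of them, Il1rn, encodes a secreted antagonist and not a receptor, and it was kept because its symbol meets the rule. The receptors Il1rl1, Il11ra1 and Il11ra2 were not analysed here.

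RNA came from CD4+ T cells of OT II transgenic mice, which carry a T cell receptor for an ovalbumin peptide, taken at 12 to 16 weeks of age from spleen and lymph nodes. Both groups were cultured with antigen-presenting cells and the ovalbumin peptide for 72 hours in RPMI-1640 with 10% dialyzed FBS, and CD4+ cells were purified again before lysis. The control group (n = 3) had complete medium, and the low arginine group (n = 3) had medium with 1% of the normal arginine (12 uM). The labels call the 3 arrays of a group biological replicates without saying which mice each one came from, so p-values measure the spread between these cultures.

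Interleukin receptors sit in the plasma membrane and tell a T cell which cytokines it can answer. Most are built from a chain that binds 1 cytokine and a second chain shared by several, such as gp130 (Il6st), the common gamma chain, Il12rb1, Il1rap, Il10rb or Il17ra. Class I and class II receptors signal through JAK kinases and STAT factors, while receptors of the IL-1 and IL-18 branch signal through a TIR domain, Myd88 and IRAK kinases, and IL-17 receptors through the adaptor Act1 (Traf3ip2) and Traf6. In CD4 T cells these receptors are known to steer survival in the resting state (IL-7), Th1 differentiation (IL-12, IL-18), Th2 differentiation (IL-4) and Th17 differentiation (IL-6, IL-23).

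Values are log2 expression values as deposited, and a change is the low arginine mean minus the control mean. The 7393 dimmest genes by mean level, those under 2.48, were treated as too dim to test. Of the 34 genes, 23 lay above that limit and 11 below it. Il17re was the nearest above it (mean 2.55 over the 6 arrays) and Il1r1 the nearest below (2.43). The 23 genes entered a limma fit over 14787 genes, and a gene was counted as changed at a Benjamini-Hochberg adjusted p below 0.05.

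In low arginine 4 receptor genes rose, Il6ra, Il1rl2, Il1r2 and Il17rb, and 3 fell, Il12rb2, Il10ra and Il7r. The largest rise was that of Il6ra, the chain that binds IL-6, by 3.82-fold. The largest fall was that of Il12rb2, the chain through which IL-12 activates Stat4, by 4.58-fold. These 7 were 30.4% of the 23 receptor genes tested, where 12.2% of all genes tested changed, 5.19% upward and 6.98% downward. With arrays centred on their 75th percentile the split over all genes was 535 higher and 1190 lower, against 767 and 1032, while the receptors stayed at 4 and 3. The median change of the 23 was 0.06, against 0.00945 over all genes tested. For 10 of the 23 the arrays of one group did not overlap those of the other (43.5%), 7 with low arginine above and 3 below, where the share over all genes tested was 32.2% (16.0% above and 16.2% below). Nothing particular to the family is read from these shares.

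**Figure D1:**
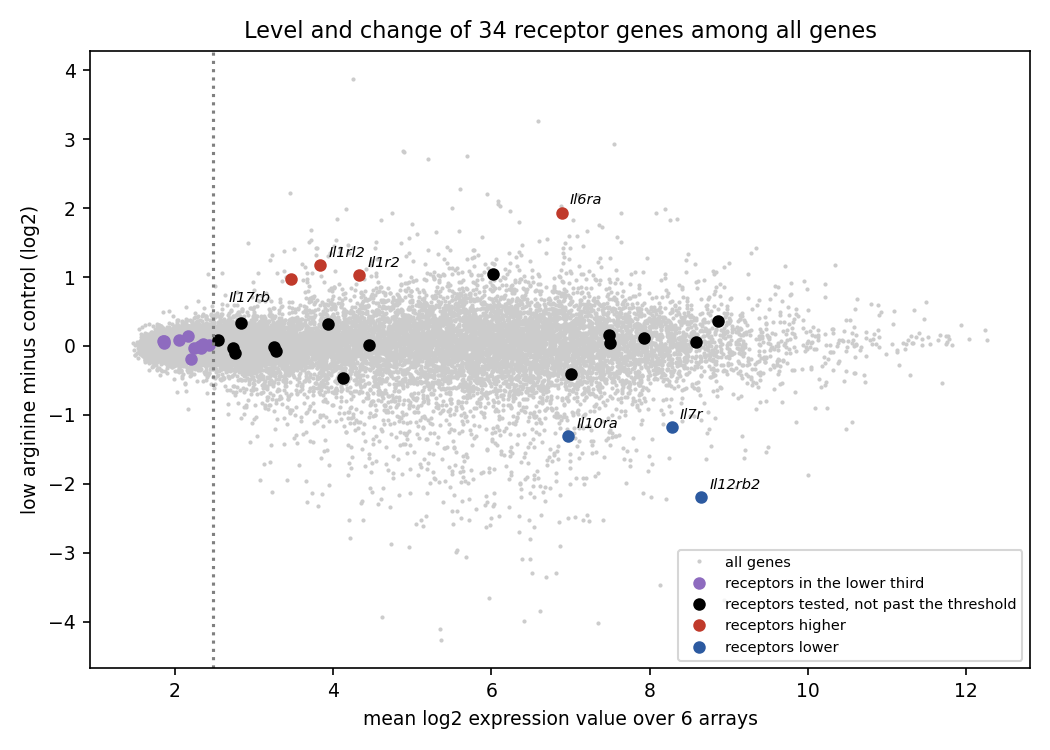
Mean log2 expression value over 6 arrays (x axis) against the change in low arginine (log2, y axis), for all genes (grey) and the 34 receptor genes (coloured); the dotted line is the limit for dim genes, 2.48. The 11 receptor genes left of the line lie between changes of -0.19 and 0.15, and the 7 changed ones lie between -2.20 and 1.94.

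Promoter windows were matched by symbol for 6 of the 7 changed members, not for Il10ra. Sequences are shown for the 2 members with the largest changes, Il12rb2 and Il6ra, and for Il7r and Il1r2, in which the same motif occurs. Each is the 250 bases before the transcription start in RefSeq's GRCm38.p6, 5′ to 3′ on the gene's strand, with matches to a motif in capitals. Il12rb2 lies on the minus strand at chr6:67376189-67376438, Il6ra on the minus strand at chr3:89913197-89913446, Il7r on the minus strand at chr15:9529877-9530126 and Il1r2 on the plus strand at chr1:40085843-40086092.
Il12rb2: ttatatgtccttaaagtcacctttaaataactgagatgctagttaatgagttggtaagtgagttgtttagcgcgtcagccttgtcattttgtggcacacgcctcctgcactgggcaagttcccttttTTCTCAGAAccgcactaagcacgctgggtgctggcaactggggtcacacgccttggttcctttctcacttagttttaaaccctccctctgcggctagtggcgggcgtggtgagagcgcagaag
Il6ra: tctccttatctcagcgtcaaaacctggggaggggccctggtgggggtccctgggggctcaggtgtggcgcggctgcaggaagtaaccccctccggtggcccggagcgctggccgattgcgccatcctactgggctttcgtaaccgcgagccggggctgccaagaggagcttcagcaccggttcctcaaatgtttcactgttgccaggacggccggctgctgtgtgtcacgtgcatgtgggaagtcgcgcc
Il7r: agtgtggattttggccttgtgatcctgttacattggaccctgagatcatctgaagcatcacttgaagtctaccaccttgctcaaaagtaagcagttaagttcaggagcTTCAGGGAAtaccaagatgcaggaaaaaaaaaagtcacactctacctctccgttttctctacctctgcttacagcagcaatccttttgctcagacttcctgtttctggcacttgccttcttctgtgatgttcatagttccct
Il1r2: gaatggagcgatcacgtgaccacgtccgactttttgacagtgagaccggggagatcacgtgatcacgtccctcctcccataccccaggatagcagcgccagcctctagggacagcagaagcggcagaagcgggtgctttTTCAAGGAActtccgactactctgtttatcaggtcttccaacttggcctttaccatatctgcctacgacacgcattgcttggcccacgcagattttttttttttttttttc
The motifs searched on both strands were TTCNNNGAA, the palindrome that STAT factors bind, TGATGNAA, a composite site of ATF4 and C/EBP factors, and TGANTCA, the AP-1 site. The capitals in Il12rb2, Il7r and Il1r2 each mark 1 match to the STAT motif, beginning 123, 142 and 111 bases before the start site, and the Il6ra window held no match to any of the 3 motifs. Of the other changed members, the Il17rb window held 1 AP-1 match and the Il1rl2 window none of the 3. Over all 32851 promoter windows of this length, 7.02% held the STAT motif, 3.45% the ATF4 composite and 6.75% the AP-1 motif. A match describes letters in the window, and no binding was measured.

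The receptors of the gp130 and IL-12 group held the largest changes in both directions. Il6ra read 5.49, 5.96 and 6.31 in the controls and 7.77, 7.56 and 8.23 in low arginine. Every low arginine array lay above every control array, with a gap of 1.26 between the groups. The means were 5.92 ± 0.41 and 7.85 ± 0.34 (SD, n = 3), a change of 1.94 with a 95% interval of 1.37 to 2.50 (limma adjusted p = 0.00474). Its signalling partner gp130, encoded by Il6st and not itself a member, read 7.57, 7.85 and 7.94 against 8.09, 8.43 and 8.35. The groups did not overlap there either, but the change of 0.50 (0.17 to 0.84) did not pass (limma adjusted p = 0.0627). Il6, the gene of the cytokine itself, was too dim to test, between 1.83 and 2.00 on the 6 arrays.

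Il12rb2 read 9.52, 10.0 and 9.72 in the controls and 7.89, 7.96 and 6.81 in low arginine. The low arginine arrays were all lower, replicate 3 by the most. From 9.75 ± 0.24 to 7.55 ± 0.65 (SD, n = 3) the change was -2.20 (95% interval -2.90 to -1.50, limma adjusted p = 0.00606). The other chain of the IL-12 receptor, Il12rb1, which the IL-23 receptor also uses, read 7.87, 6.90 and 6.86 against 6.91, 7.06 and 6.42. Those groups overlapped, control replicate 1 being the one high array, and the change was -0.41 (-1.09 to 0.27, limma adjusted p = 0.438). Without control replicate 1 it was -0.079 (limma adjusted p = 0.814), and with array weights -0.11 (0.657). Il23r, which pairs with Il12rb1 to bind IL-23 and is the direct neighbour of Il12rb2 on the chromosome in RefSeq's table, lay below the limit in both groups on average (2.34 ± 0.22 and 2.32 ± 0.16, SD, n = 3).

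Il27ra, which joins gp130 to form the IL-27 receptor, read 8.63, 8.55 and 8.85 in the controls and 9.03, 9.09 and 9.01 in low arginine. The groups did not overlap, and the change was small, 0.37 (95% interval 0.10 to 0.64), and did not pass (limma adjusted p = 0.0841). Il31ra, a chain of the IL-31 receptor, was below the limit at 2.32 ± 0.02 and 2.31 ± 0.16 (SD, n = 3). Thus of the 6 genes of this group 1 rose, 1 fell, 2 did not pass and 2 were too dim to test.

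**Figure D2:**
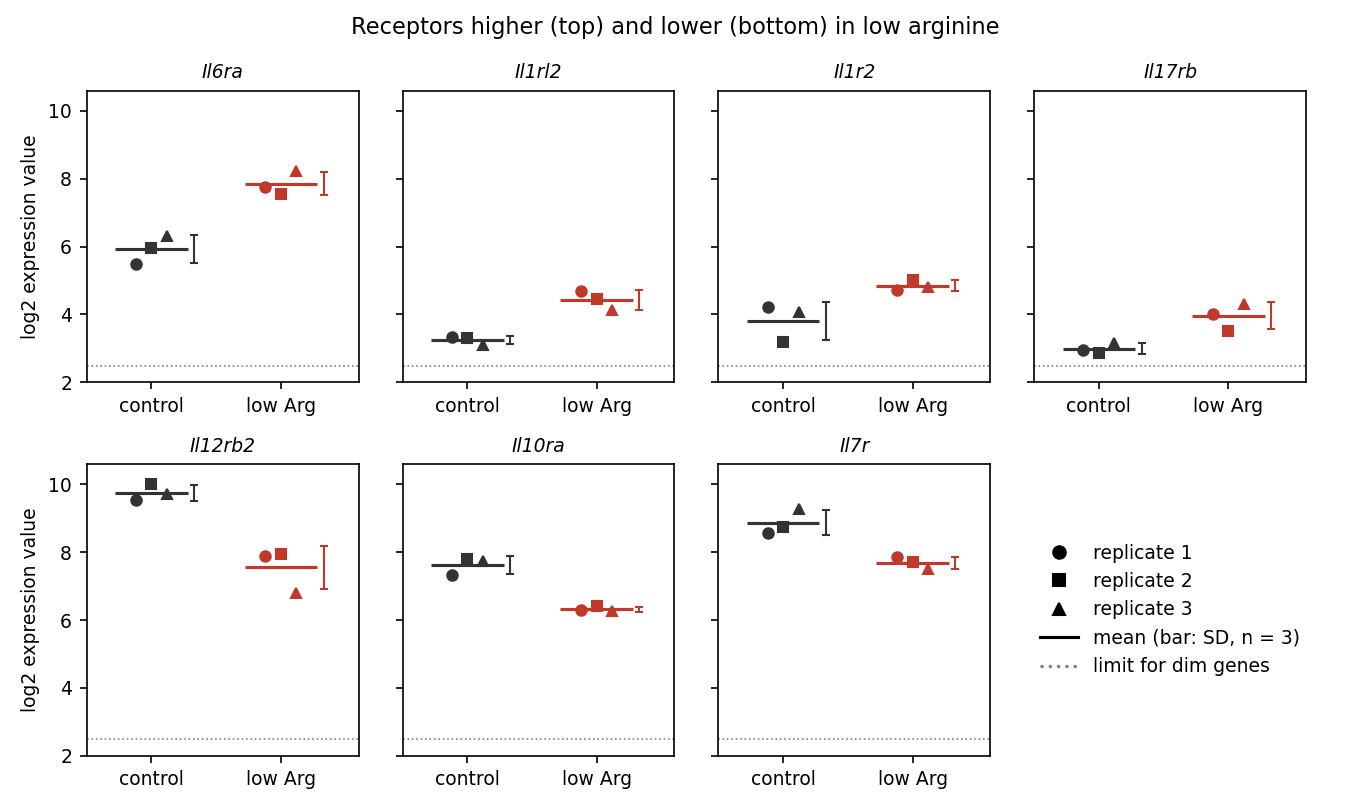
Log2 expression value (y axis) on each array of the control (grey) and low arginine (red) groups for the 4 receptor genes that rose (top) and the 3 that fell (bottom); horizontal lines are means, bars SD (n = 3), and the dotted line the limit for dim genes. Groups do not overlap in any of the 7 panels, and the gap between them runs from 0.36 (Il17rb) to 1.57 (Il12rb2).

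Among the receptors of the common gamma chain, and those for IL-4 and IL-13 beside them, only Il7r changed of the 4 genes tested. Il7r, the IL-7 receptor alpha chain that keeps resting T cells alive, read 8.57, 8.75 and 9.28 in the controls and 7.86, 7.70 and 7.49 in low arginine. All low arginine arrays lay below all controls. The fall, from 8.87 ± 0.37 to 7.68 ± 0.18 (SD, n = 3), was -1.18 on the log2 scale (95% interval -1.64 to -0.73, limma adjusted p = 0.0109), or 2.27-fold. The call ended without low arginine replicate 2 (limma adjusted p = 0.0529) or replicate 3 (0.0516), with changes of -1.19 and -1.09. Il7, which encodes its cytokine, lay below the limit on all 6 arrays, between 1.83 and 2.13.

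Il4ra, the chain that binds IL-4 and also serves the IL-13 receptor, read 9.28, 8.20 and 8.17 in the controls and 8.97, 8.62 and 8.25 in low arginine. Control replicate 1 was the highest array and the groups overlapped, with a change of 0.06 (95% interval -0.67 to 0.80, limma adjusted p = 0.932). Without control replicate 1 the change was 0.43 (limma adjusted p = 0.166). Il21r, the IL-21 receptor and the neighbour of Il4ra on the chromosome, read 7.68, 7.88 and 8.04 against 8.13, 8.04 and 7.79, a change of 0.12 (-0.21 to 0.45, limma adjusted p = 0.668). The IL-9 receptor gene Il9r changed by -0.01 (-0.38 to 0.36, limma adjusted p = 0.977), at 3.26 ± 0.30 and 3.25 ± 0.07 (SD, n = 3). Both IL-13 receptor chains were below the limit, Il13ra1 at 2.26 ± 0.07 and 2.23 ± 0.07 and the decoy Il13ra2 at 1.83 ± 0.21 and 1.90 ± 0.14 (SD, n = 3).

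Of the receptors that signal with the common beta chain, Il3ra, which binds IL-3, was at 4.44 ± 0.08 and 4.46 ± 0.04 (SD, n = 3), a change of 0.02 (95% interval -0.22 to 0.26, limma adjusted p = 0.932). Its sign turned to -0.063 after quantile normalization and -0.039 with arrays centred on the 75th percentile. Il5ra, which binds IL-5, was below the limit, at 2.09 ± 0.14 and 2.24 ± 0.27 (SD, n = 3).

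In the IL-1 and IL-18 group, 2 of the 6 genes tested rose and none fell. Il1rl2, the receptor for the IL-36 cytokines, read 3.34, 3.29 and 3.11 in the controls and 4.70, 4.44 and 4.13 in low arginine. The groups were 0.79 apart, and the change was 1.18 (95% interval 0.80 to 1.55, limma adjusted p = 0.00605), or 2.26-fold. Its control mean lay 0.76 above the limit for dim genes. Of the IL-36 genes, named Il1f6, Il1f8 and Il1f9 in the probe table, Il1f6 was tested and changed by -0.22 (-0.46 to 0.02, limma adjusted p = 0.214), and the others were below the limit.

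Il1r2, a decoy receptor that binds IL-1 without passing on a signal, read 4.21, 3.17 and 4.06 in the controls and 4.71, 5.02 and 4.80 in low arginine. Low arginine arrays were all higher, and control replicate 2 was the lowest of the 6. The rise of 1.03 (95% interval 0.42 to 1.63, limma adjusted p = 0.042) was close to the threshold. Its call ended when any one array other than control replicate 1 was left out (limma adjusted p = 0.0563 to 0.149), with changes of 0.71 to 1.15. Calls over all genes tested also fell in these settings, from 1799 to between 500 and 1367. The Il1r2 call ended too after quantile normalization (limma adjusted p = 0.0523) and with no filter on dim genes (0.0518). With array weights the rise was 1.57 (limma adjusted p = 0.000503). Il1r1, the signalling receptor for IL-1 and the neighbour of both Il1r2 and Il1rl2, was below the limit on average. It read 2.38, 2.43 and 2.45 against 2.61, 2.32 and 2.37, and the groups overlapped. The IL-1 genes Il1a and Il1b also lay below the limit on average.

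Il1rap, the accessory chain shared by the receptors for IL-1, IL-33 and IL-36, read 3.95, 3.76 and 3.62 against 4.17, 4.15 and 3.98. Its groups lay 0.04 apart, and the change of 0.32 (95% interval 0.03 to 0.61) did not pass (limma adjusted p = 0.139). The other 2 probe sets of Il1rap were dimmer and changed by 0.02 and -0.14, with overlapping groups, and the mean of the 3 changed by 0.07. Il1rn, the IL-1 receptor antagonist, read 2.93, 2.52 and 2.57 against 3.00, 2.94 and 3.09, groups 0.01 apart, and changed by 0.34 (0.02 to 0.65, limma adjusted p = 0.16). Without control replicate 1 both passed, Il1rap at 0.41 (limma adjusted p = 0.0401) and Il1rn at 0.47 (0.0187). The neuronal members Il1rapl1 and Il1rapl2 were below the limit in every array, between 1.71 and 2.08.

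Neither chain of the IL-18 receptor, which supports interferon gamma production in Th1 cells, passed. Il18r1, which binds IL-18, read 4.73, 5.42 and 6.34 in the controls and 6.11, 6.40 and 7.10 in low arginine. Control replicate 3 lay within the range of the low arginine arrays. The change was 1.04 (95% interval 0.09 to 1.99, limma adjusted p = 0.147), and its size depended on single arrays. It was 0.66 without control replicate 1 (limma adjusted p = 0.217), 0.76 without low arginine replicate 3 (0.393) and 1.46 without control replicate 3 (0.0411), and 1.06 with array weights (0.0102). Il18rap, the accessory chain and chromosomal neighbour, read 4.15, 3.99 and 4.95 against 4.03, 3.88 and 3.79, a change of -0.46 (-1.02 to 0.09, limma adjusted p = 0.269). The groups overlapped, and the change was -0.17 without control replicate 3 (limma adjusted p = 0.485) and -0.18 with array weights (0.441).

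**Figure D3:**
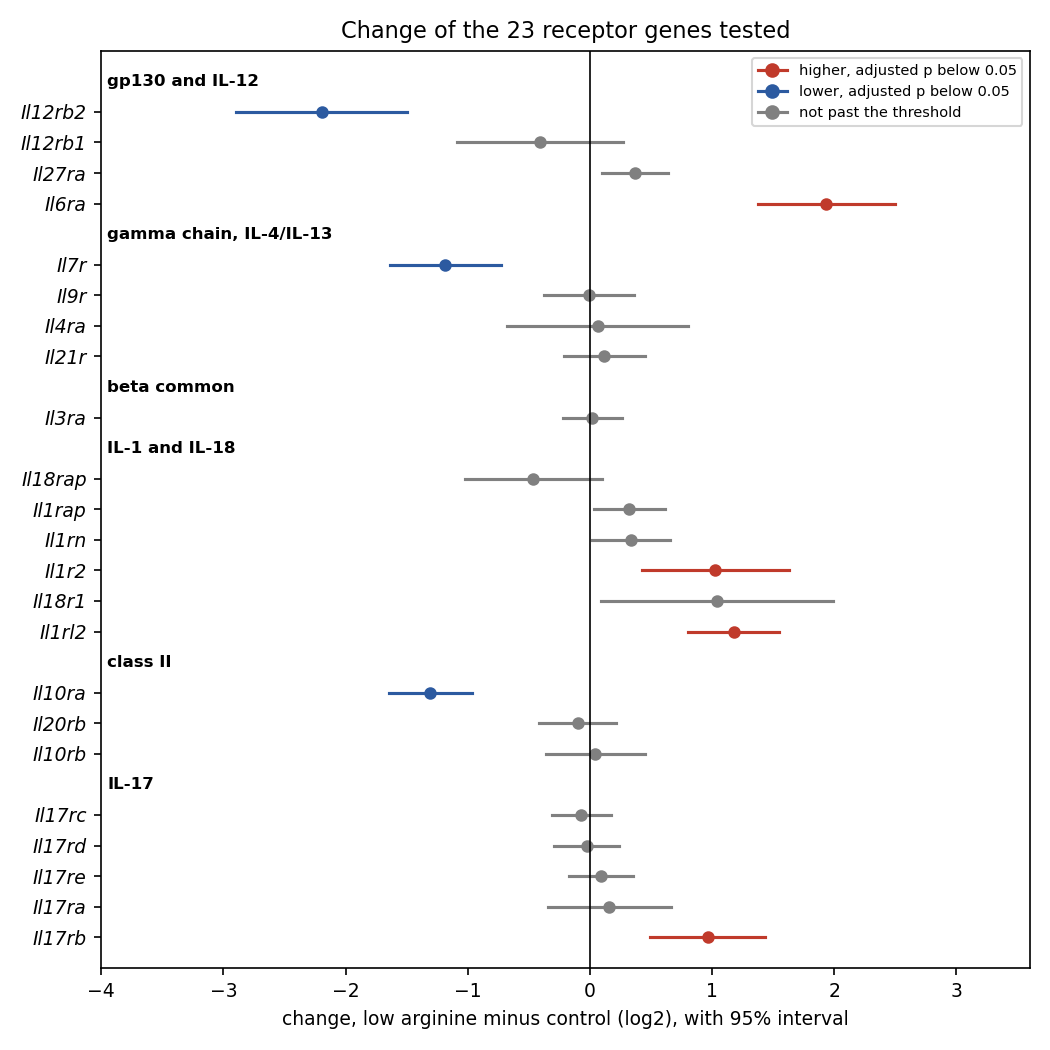
Change on the log2 scale (x axis) with its 95% interval from limma for the 23 receptor genes tested, grouped by receptor class. Il6ra (1.94) and Il12rb2 (-2.20) lie farthest from 0, and the interval of Il18r1 is the widest of the IL-1 and IL-18 group (0.09 to 1.99).

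Of the class II receptors, Il10ra fell. This chain binds IL-10, a cytokine that restrains immune responses, and it read 7.33, 7.80 and 7.75 in the controls and 6.30, 6.40 and 6.26 in low arginine. The low arginine arrays lay close together and 0.93 below the lowest control. Going from 7.63 ± 0.26 to 6.32 ± 0.07 (SD, n = 3), it changed by -1.31 (95% interval -1.65 to -0.96, limma adjusted p = 0.00334), or 2.47-fold. Il10rb, the second chain of the IL-10 receptor, which receptors for IL-22 and interferon lambda share, was at 7.47 ± 0.26 and 7.51 ± 0.24 (SD, n = 3) and changed by 0.04 (-0.36 to 0.45, limma adjusted p = 0.913). That sign turned with arrays centred on the 75th percentile (-0.016). Il20rb, a chain of the receptors for IL-20 and IL-24, changed by -0.10 (-0.42 to 0.21, limma adjusted p = 0.703). Il20ra, Il22ra1 and the soluble IL-22 binding protein Il22ra2 were below the limit on average. Il20ra was the only one of the 11 dim genes whose groups did not overlap, at 2.30 ± 0.07 and 2.11 ± 0.06 (SD, n = 3).

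All 5 IL-17 receptor genes were above the limit, and Il17rb rose. Il17rb, which binds IL-25, read 2.95, 2.85 and 3.16 in the controls and 4.02, 3.52 and 4.31 in low arginine. Every low arginine array was higher, and the change was 0.96 (95% interval 0.50 to 1.43, limma adjusted p = 0.023), or 1.95-fold. Its control mean was 0.50 above the limit for dim genes. The call ended without control replicate 2 (limma adjusted p = 0.0962) or low arginine replicate 1 (0.0768) or 3 (0.0756). Il25 changed by -0.04 (limma adjusted p = 0.913).

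Il17ra, the chain shared across the IL-17 receptors, read 6.88, 7.56 and 7.76 in the controls and 7.48, 7.59 and 7.62 in low arginine. The groups overlapped, control replicate 1 being the lowest array, and the change was 0.16 (95% interval -0.34 to 0.66, limma adjusted p = 0.706). It turned to -0.10 without that array. Il17rc, which pairs with Il17ra to bind IL-17A and IL-17F, changed by -0.07 (-0.31 to 0.17, limma adjusted p = 0.738). Il17rd, which also dampens fibroblast growth factor signalling, changed by -0.02 (-0.29 to 0.24, limma adjusted p = 0.928) and Il17re, which binds IL-17C, by 0.09 (-0.17 to 0.35, 0.683).

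Partner chains of a receptor were then set against each other within each array, in 7 pairs chosen after their values had been seen. Most of them set a changed member against a partner that did not pass, so the values describe the results above in another form and do not show that the chains changed unequally. The change of Il12rb2 minus Il12rb1 was -1.79, that of Il10ra minus Il10rb -1.35, of Il6ra minus Il6st 1.43, of Il1rl2 minus Il1rap 0.85 and of Il18r1 minus Il18rap 1.51. In these 5 pairs the groups did not overlap (two-sided exact permutation p = 0.1 each, the smallest that 3 against 3 arrays can give, and 0.14 after Benjamini-Hochberg adjustment over the 7 pairs). Il17rb minus Il17ra changed by 0.81 with overlapping groups (exact p = 0.2, adjusted 0.233), and Il27ra minus Il6st by -0.14 (exact p = 0.3, adjusted 0.3). No pair could reach an exact p below 0.05 in this design.

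**Figure D4:**
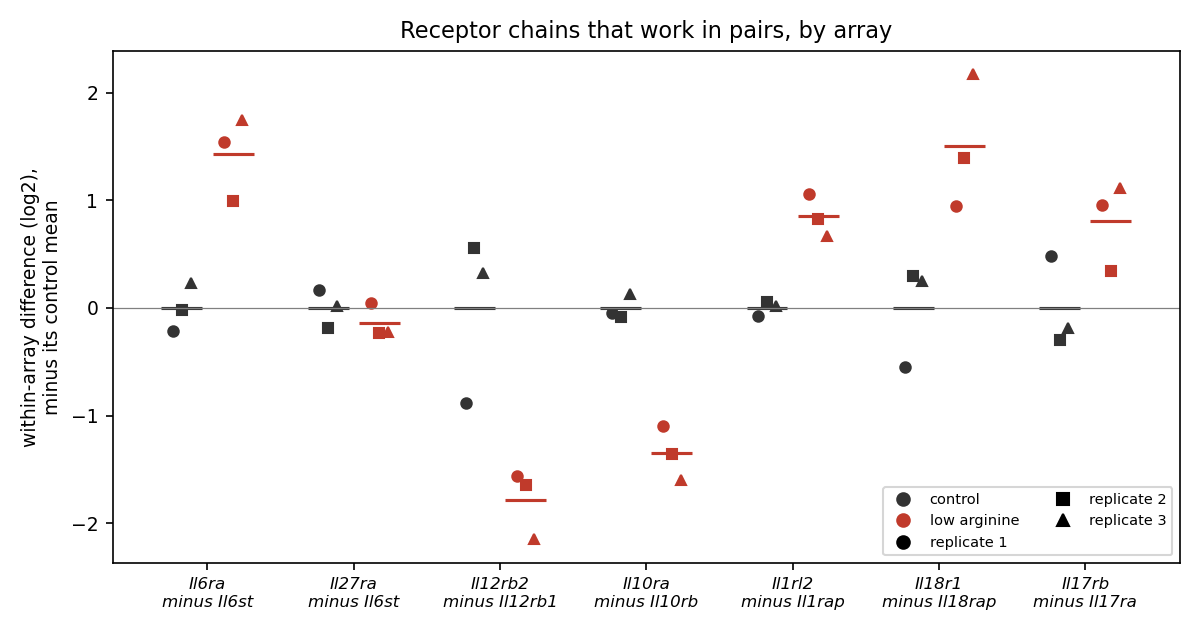
Within-array difference between the chains of a receptor (log2, y axis), shifted so that the control mean of each pair is 0, for the control (grey) and low arginine (red) arrays, with marker shapes for the replicates and lines for means. The low arginine mean lies at -1.79 for Il12rb2 minus Il12rb1, at 1.51 for Il18r1 minus Il18rap and at -0.14 for Il27ra minus Il6st.

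The cytokines, shared chains and signalling genes around these receptors were given by a list of 60 genes, of which 56 were matched and 38 tested. Of these 38, 3 rose and 3 fell, a share of 15.8% beside the 12.2% of all genes tested, and 32 did not pass. Among the 17 cytokines tested, Il17a, the cytokine of Th17 cells, rose by 1.19 (95% interval 0.64 to 1.74, limma adjusted p = 0.0197), reading 2.63, 3.40 and 3.00 against 3.79, 4.44 and 4.36. Il24, a ligand of the receptors built on Il20rb, fell by 3.09 on the log2 scale (interval -4.82 to -1.35, limma adjusted p = 0.0364). It read 9.76, 7.13 and 6.89 against 5.64, 4.05 and 4.82, control replicate 1 being the highest array. The call of Il24 ended when control replicate 2 or 1 of the low arginine arrays was left out (limma adjusted p = 0.0597 to 0.135), and that of Il17a without low arginine replicate 2 (0.0879) or 3 (0.0837).

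Of the 5 shared chains tested, Sigirr, a TIR-domain receptor that dampens IL-1 signalling, fell by 0.81 on the log2 scale (95% interval -1.13 to -0.49, limma adjusted p = 0.0121), reading 6.82, 7.11 and 7.08 against 6.29, 6.31 and 5.99. The fall did not pass without control replicate 2 (limma adjusted p = 0.0603) or low arginine replicate 3 (0.0505). Among 9 kinases and STAT factors, Stat4, which the IL-12 receptor activates, fell from 9.79 ± 0.05 to 8.88 ± 0.12 (SD, n = 3), a change of -0.91 (-1.16 to -0.66, limma adjusted p = 0.00403). Stat5a, which the IL-7 receptor activates, rose by 0.72 (0.38 to 1.05, limma adjusted p = 0.0199). Stat5b, the brighter gene at a mean of 8.15 against 6.83, changed by -0.12 (-0.55 to 0.30, limma adjusted p = 0.738). With array weights both Stat5b and Stat3 were among the genes called lower. Of 7 adaptors of the IL-1 and IL-17 branches, Traf6, a ubiquitin ligase, rose by 0.91 (0.35 to 1.46, limma adjusted p = 0.0476). The call of Stat5a ended when control replicate 2 or 1 of the low arginine arrays was left out (limma adjusted p = 0.0596 to 0.0861). That of Traf6 ended when 1 array other than control replicate 1 was left out (0.0647 to 0.123), with arrays centred on the 75th percentile (0.0532) and with no filter (0.0582). Jak1, Jak2, Tyk2, Stat3 and Stat6 were among those that did not pass in the main fit.

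The arrays' medians lay between 2.97 and 3.03, and over all genes tested control replicate 1 stood apart from the other controls on the second principal component (35.2 against -8.53 and -22.3). Among the receptors it lay above the mean of the other controls by 1.10 in Il4ra and 0.99 in Il12rb1, and below it by 1.15 in Il18r1 and 0.78 in Il17ra. Type 2 cytokine genes were also high on that array, named here after their values had been seen. Il4 read 5.54 there against 3.04 and 3.38 in the other controls, Il13 8.40 against 5.45 and 4.38, Il10 5.04 against 2.18 and 2.73, and Il5 4.08 against 2.90 and 3.06. None of these 4 cytokines passed between the groups (limma adjusted p = 0.21 to 0.442). The low arginine mean of Il10, 2.43, lay below the limit for dim genes, as did its control replicate 2. The groups of Il4 and Il5 did not overlap, with low arginine 0.06 and 0.03 below. With array weights Il13 was called lower (-1.18, limma adjusted p = 0.049). The part of control replicate 1's profile in the receptor values was not tested. All 7 receptor calls held without control replicate 1, and Il1rap and Il1rn were then called too.

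**Figure D5:**
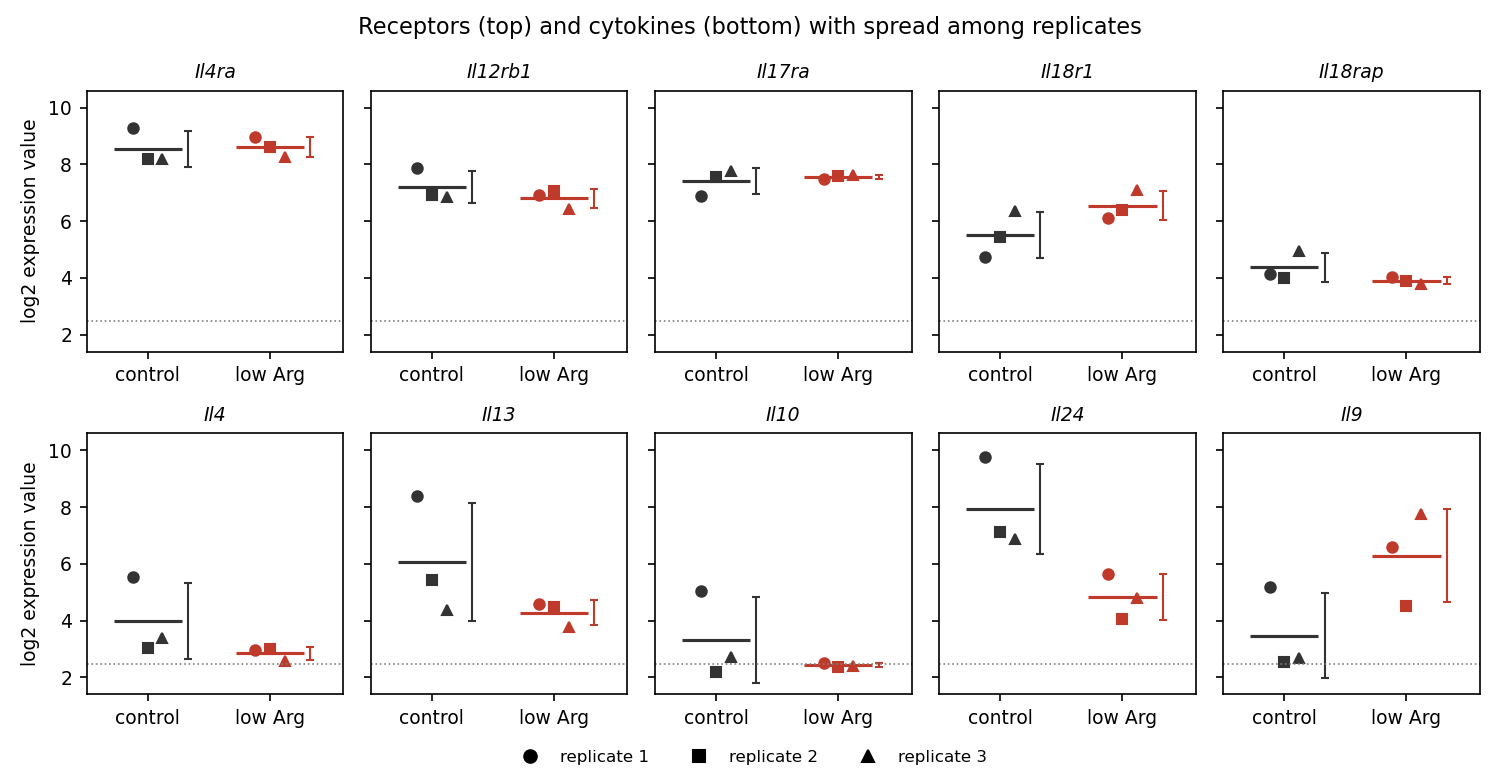
Log2 expression value (y axis) on each array for 5 receptor genes with wide spread or overlapping groups (top) and 5 cytokine genes (bottom), control in grey and low arginine in red, with means, SD bars (n = 3) and the limit for dim genes dotted. Control replicate 1 is the highest control in Il4ra (9.28), Il12rb1 (7.87), Il4 (5.54), Il13 (8.40), Il10 (5.04), Il24 (9.76) and Il9 (5.19).

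The T cell label was borne out by its markers, as 7 of 8 listed were matched and all of these were above the limit, Cd3e reading 10.8 and Cd4 10.2 on average, with none called. Of 35 matched markers of other cells that the co-culture could hold, 22 were above the limit. Cd8b1 (6.57), Cpa3 (6.42), Cd68 (5.39) and Prf1 (4.94) averaged 4 or more over the 6 arrays. None of the 22 was called by limma (3 at an unadjusted p below 0.05). These 3 were the CD8 marker Cd8b1 (-0.66, limma adjusted p = 0.0632) and the NK markers Klrd1 (-0.61, 0.177) and Klrc1 (0.30, 0.128). Klrc1 lay near the limit, its control mean of 2.38 below it and its low arginine mean of 2.68 above. Summed on the linear scale, neutrophil markers ranged from 33.2 to 34.5 in controls and 33.5 to 34.5 in low arginine, B cell markers from 30.9 to 34.4 and 29.9 to 34.4, dendritic cell markers from 30.1 to 34.8 and 33.4 to 36.9, and macrophage and monocyte markers from 54.4 to 88.1 and 68.8 to 73.6. The mast cell and basophil sum, 110 to 392 in controls and 40.7 to 133 in low arginine, was highest in control replicate 1. The protease gene Cpa3 weighed most in this sum, with a mean of 6.42 over the 6 arrays against 2.21 to 2.70 for the other matched markers. On control replicate 1 Cpa3 read 8.48, Gata2 3.07, Fcer1a 2.77, Mcpt8 2.72 and Ms4a2 2.69, each its highest value of the 6. The means of Fcer1a, Mcpt8 and Ms4a2 over the 6 arrays lay below the limit. Prss34, also on this list, read 2.80 on control replicate 1 and was highest, at 2.87, on low arginine replicate 3. The part of these transcripts in the receptor values was not tested. NK markers summed to 48.2 to 69.1 and 54.6 to 66.5, and those of CD8 T cells, Cd8a and Cd8b1, to 98.4 to 155 and 75.3 to 94.5, whose groups did not overlap. The part of these CD8 transcripts in the falls of the receptors was not tested, and in bulk RNA fewer cells of a type and less RNA per cell cannot be told apart.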

How the data were processed

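The series matrix held log2 expression values per probe set of a 1-colour Affymetrix whole-transcript array, as deposited by the authors. The oligo package is named in the submitters' processing notes. Its version was not given in the sources used here, nor were the background correction, normalization, summarization and log base. Base 2 was inferred from values of 0.956 to 12.4, and after sorting the arrays differed by no more than 0.199. Detection calls and scanner signals were not used here, and the number of arrays limits the precision.

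Of 41345 probe sets, 23521 had 1 gene symbol, 1814 several and 16010 none; the first gave 22180 genes. The dimmest 7393 by mean were left out. The groups were tested by limma 3.58.1 under R 4.3.3, with lmFit and eBayes and no covariate (two-sided, residual degrees of freedom 4 and prior 3.69, Benjamini-Hochberg adjustment over the 14787 genes tested). The fit was tested on simulated data. Lists were matched by symbol, or by older symbols through RefSeq's GRCm38.p6 table, which named the IL-36 genes. The members and lists were chosen with earlier results of these data known. Named were all members, 14 of which were to be described whatever their result, and pathway genes past the threshold. Il1rl1 was not analysed here, and Il28ra, listed as Ifnlr1, does not meet the rule. Il6st, Il6, Il7, Il9, Il25, the IL-36, IL-1 and type 2 cytokine genes and the chain pairs were added after values were seen. Stat5b, Jak1, Jak2, Tyk2, Stat3 and Stat6 were named too, though none passed in the main fit. Chain pairs used SciPy 1.17.1, figures matplotlib 3.10.9. Alternatives were quantile normalization, centring on the 75th percentile, no filter, a filter keeping 11090 genes, the mean of probe sets, a trended and robust prior, array weights, a block on replicate number, and each array left out in turn.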

Additional observations from a re-analysis of the deposited data

How the results depend on the processing

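Il6ra, Il1rl2, Il12rb2 and Il10ra kept their direction and their call in all 14 alternatives, Il7r its call in 12, Il17rb in 11 and Il1r2 in 6. The count of receptors higher, 4, was 8 with array weights (Il18r1, Il1rap, Il1rn and Il27ra added) and ran from 2 to 6 with 1 array left out, with 2 when control replicate 2, or replicate 1 or 3 of low arginine, was absent. The count lower, 3, ran from 2 to 3. With array weights 8 pathway genes were higher and 7 lower; with 1 array left out these counts ran from 0 to 5 and from 1 to 4, with none higher without low arginine replicate 2 or 3. The counts of 0 are limma's, where 5 and 7 pathway genes were higher at an unadjusted p below 0.05. Over all genes tested the count of calls, 1799, ran from 500 (without control replicate 2) to 3325 (without control replicate 1), and was 5514 with array weights.

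Signs turned only in genes that passed in no alternative. Il3ra changed by -0.063 after quantile normalization and -0.039 centred on the 75th percentile, Il10rb by -0.016 with that centring and -0.16 with array weights, and Il10 by 0.078 with array weights. With 1 array left out Il3ra ran from -0.023 to 0.062, Il10rb from -0.082 to 0.18, Il17ra from -0.10 to 0.34, Il17rd from -0.10 to 0.040, Il4ra from -0.13 to 0.43 and Il9r from -0.18 to 0.10. The cause of these changes in sign was not tested, and the last set also had fewer arrays. The stricter filter gave no value for Il17rd, Il17re, Il1rn, Il20rb, Il5 and Il10.

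With the replicate number as a block, 4 receptors were higher and 3 lower. Il18r1 was called (1.04, limma adjusted p = 0.015) and Il1r2 was not (0.0621); Il6st passed (0.0472) and Traf6 did not (0.0723). The labels do not pair the arrays. Deviations from the group means of same-numbered arrays correlated at 0.121, 0.0588 and 0.141, each array most with its own number. That is a hint of pairing, which the labels do not settle. The unpaired fit stayed the main one, and the block was an alternative.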

Other observations

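Il9, the gene of a growth factor for mast cells and T cells, had the widest spread among the cytokines of the list in low arginine. It read 5.19, 2.55 and 2.68 in the controls and 6.59, 4.52 and 7.77 in low arginine, and control replicate 1 lay above low arginine replicate 2. The change of 2.82 (95% interval 0.67 to 4.98) did not pass (limma adjusted p = 0.0931), while without control replicate 1 it was 3.68 (0.0141). Its receptor gene Il9r lay at 3.26 ± 0.30 and 3.25 ± 0.07 (SD, n = 3).

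The IL-1 and IL-18 receptor genes form a run on a single chromosome in RefSeq's table, in the order Il1r2, Il1r1, Il1rl2, Il1rl1, Il18r1, Il18rap, with no other protein-coding gene between neighbours. Along it the changes were 1.03, 0.02, 1.18, not analysed here, 1.04 and -0.46, with Il1r2 and Il1rl2 past the threshold and Il1r1 too dim to test.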
